A study of Mus musculus with 6 samples.

Results

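The BCL2 family members examined here were the 9 genes Bcl2, Bcl2l1, Bcl2l2, Mcl1, Bcl2l11, Bad, Bid, Bak1 and Bnip3l, chosen by symbol as members outside the usual p53 targets of the family. They were 9 of the 30315 genes in the expression table and 9 of the 12009 genes that were tested. Of these, 4 are pro-survival (Bcl2, Bcl2l1, Bcl2l2 and Mcl1) and 5 are pro-death (Bcl2l11, Bad, Bid, Bak1 and Bnip3l). The RNA came from primary renal tubular epithelial cells of C57BL/6 mice, whose age is not given in the sources used here. The cells of both groups were kept for 6 h at 1.0% oxygen without glucose and then returned to complete medium in normal air for 18 h, a sequence called hypoxia/reoxygenation (H/R). They differed in the siRNA transfected 12 h before hypoxia, which was a negative control siRNA (siNC, 3 libraries) or an siRNA against the transcription factor Sox9 (siSox9, 3 libraries). No library without H/R entered the comparison, so every level below is a level after H/R. The siSox9 libraries came from a single siRNA, so that any other effect of that siRNA cannot be told apart from the loss of Sox9. The labels do not say that the 3 libraries of a group came from separate cultures or animals, so the p-values measure the spread between these libraries only.

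Proteins of the BCL2 family decide whether the outer membrane of the mitochondrion stays closed. Pro-survival members hold the pore-forming effectors BAK and BAX, and the BH3-only proteins that activate them, in check, and when the effectors assemble into pores, cytochrome c leaves the mitochondrion, the apoptosome forms and caspases are activated. In the renal tubule this route is a known form of cell death after ischemia and reperfusion, for which H/R is the cultured counterpart. Many members are also controlled after transcription, by turnover, phosphorylation or cleavage of the protein, none of which is measured by RNA sequencing.

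RefSeq (GRCm38.p6) held 12 start-site windows for 8 members and no entry for Bnip3l. The 250 bases before the start are shown for Bcl2 and Bcl2l1, the pro-survival members that passed the test below in opposite directions, with no annotated exon inside the window. Bak1, the other member that passed, is not shown because its window lies within an annotated exon. The Bcl2 sequence is chr1:106714291-106714540 on the minus strand and the Bcl2l1 sequence is chr2:152831729-152831978 on the minus strand, each written 5′ to 3′. Capitals would mark ACAAT or ATTGT, the core motif bound by SOX proteins read on either strand.
Bcl2: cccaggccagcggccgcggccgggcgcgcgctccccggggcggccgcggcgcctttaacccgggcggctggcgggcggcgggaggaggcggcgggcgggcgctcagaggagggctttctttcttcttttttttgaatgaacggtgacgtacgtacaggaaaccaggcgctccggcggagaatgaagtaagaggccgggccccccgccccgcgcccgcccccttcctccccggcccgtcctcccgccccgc
Bcl2l1: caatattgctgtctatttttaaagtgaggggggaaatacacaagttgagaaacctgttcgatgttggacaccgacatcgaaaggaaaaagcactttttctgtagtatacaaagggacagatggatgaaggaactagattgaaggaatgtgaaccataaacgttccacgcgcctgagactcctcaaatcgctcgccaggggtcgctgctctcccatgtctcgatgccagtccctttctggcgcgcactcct
Neither of the printed windows held the motif. It was present in 4 of the 12 member windows (Mcl1, Bid, 1 of 2 for Bcl2l11 and another of the 3 for Bcl2l1), against 27.7% of all 32851 RefSeq windows of this length and 17.6% of the windows of tested genes. The Bcl2 window had 74.8% G and C bases and the Bcl2l1 window 47.6%, against a median of 60.4% for tested genes. A match or its absence describes these letters only.

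Expression was measured as FPKM, fragments per kilobase of transcript scaled to the mapped total of the library, which takes length into account and so allows genes to be compared. The reads recovered from the FPKM steps came to between 23893197 and 25725743 per library. For the 8 members whose reads could be recovered, the counts were between 779 and 6826 reads per library. Bad could not be recovered. The control library siNC replicate 1 stood somewhat apart, with a mean chi-square per gene of 6.57 and 6.87 against the other siNC libraries, where the other pairs within a group gave 1.89 to 3.91 and pairs between groups 20.5 to 23.3. Without it the called members were the same 3, with log2 differences of 0.26 for Bak1, 0.14 for Bcl2l1 and -0.20 for Bcl2, and Bcl2l2 in addition. Sox9 itself checked the labels. It stood at 8.93, 8.61 and 9.07 FPKM with siSox9 and at 25.7, 26.5 and 25.6 FPKM with siNC, and its mean fell by 65.8% (log2 difference -1.45, limma with Benjamini-Hochberg adjustment, adjusted p = 7.03e-06). Tubular epithelial markers were abundant, with a summed level of 3841 to 4005 FPKM for 10 markers with siSox9 and 3668 to 3877 FPKM with siNC, led by the keratins Krt8 and Krt18, although the proximal tubule phosphate transporter Slc34a1 did not exceed 0.00895 FPKM in any library. Of the 9 tubular markers tested, 2 were called higher with siSox9 and none lower, 22.2% against 30.4% of all tested genes. Cdh16 rose from 101 to 130 FPKM (limma, adjusted p = 0.000307). The injury marker Havcr1 rose from 65.4 to 74.6 FPKM (limma, adjusted p = 0.0366). Slc34a1, Cdh16 and Havcr1 were named after their values were seen.

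Among the 9 members, Bak1 and Bcl2l1 rose and Bcl2 fell with siSox9, and the other 6 did not pass the test. Bak1 was 17.4% higher, Bcl2l1 was 9.55% higher and the mean of Bcl2 fell by 15.4%. Differences are given as siSox9 minus siNC on the log2(FPKM + 1) scale, tested with limma across the 12009 genes that averaged 1 FPKM or more, and a gene was called at an adjusted p under 0.05. By this rule 3650 genes, 30.4% of those tested, were called, 12.8% higher and 17.6% lower. The members' share, 3 of 9 or 33.3%, was near that background. Their median log2 difference was 0.06 and that of all tested genes was -0.01. The 2 groups of libraries did not overlap for 5 members (Bak1, Bcl2l1, Bcl2l11 and Mcl1 higher, Bcl2 lower), against 46.3% of tested genes (20.2% higher and 26.1% lower). In bulk RNA, a change in the share of cells that express a gene and a change in RNA per cell cannot be told apart.

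**Figure D1:**
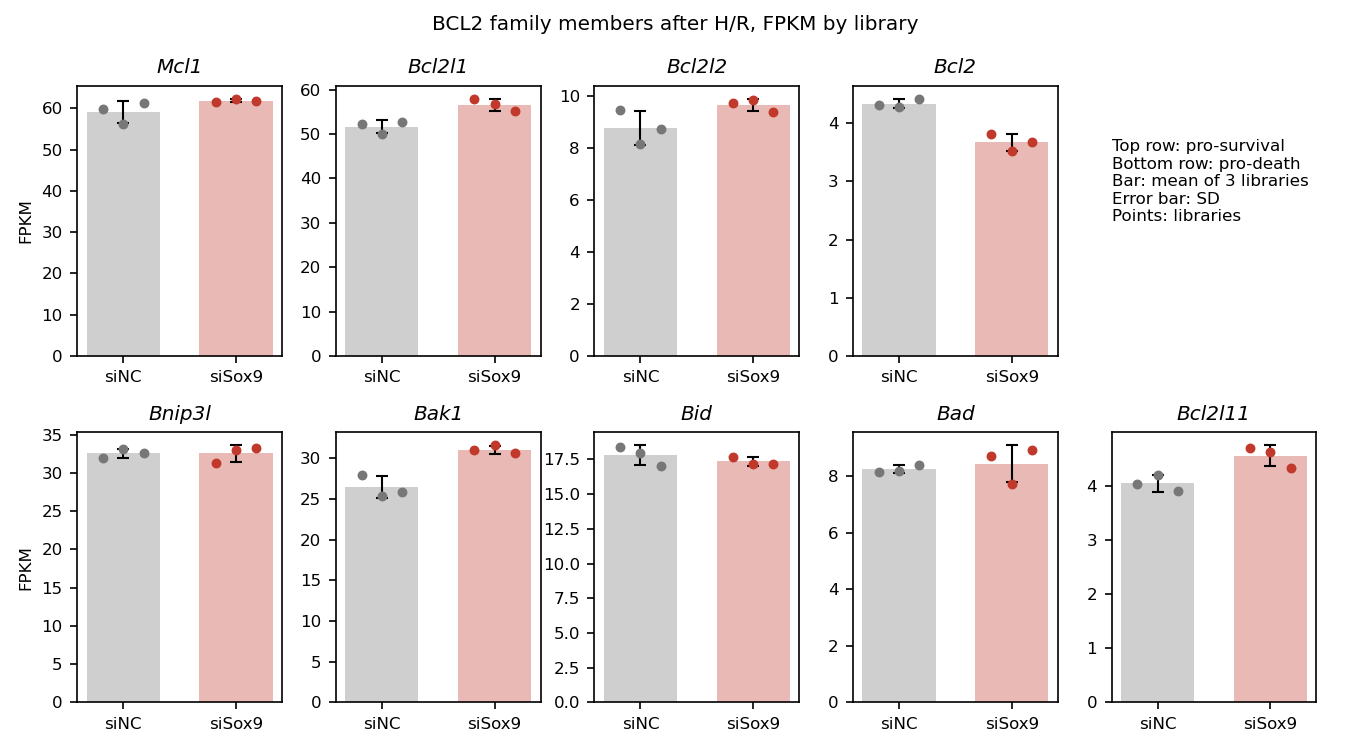
FPKM of the 9 members in each library, siSox9 and siNC, with a point for each library, a bar for the mean of 3 and an error bar for the SD. The siSox9 and siNC points of Bak1, Bcl2l1, Bcl2l11, Mcl1 and Bcl2 do not overlap, while those of Bcl2l2, Bad, Bid and Bnip3l do.

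The pro-survival members spanned more than a factor of 10 in level, and their 2 most abundant transcripts dominated the class. Mcl1 (chromosome 3, 95658788 to 95663176, plus strand), which encodes a short-lived protein that restrains BAK and BIM, was the most abundant member in both groups. It measured 61.6, 62.3 and 61.8 FPKM with siSox9 and 59.9, 56.2 and 61.4 FPKM with siNC. The siSox9 libraries lay close together and just above the highest siNC library. The means were 61.9 ± 0.400 and 59.2 ± 2.72 FPKM (SD, n = 3 each), and the log2 difference of 0.06 (95% interval -0.02 to 0.15) did not pass (limma, adjusted p = 0.239).

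Bcl2l1 (chromosome 2, 152780668 to 152831728, minus strand), which encodes BCL-XL, the pro-survival protein that holds both BAX and BAK, ranked next. It measured 57.9, 56.7 and 55.1 FPKM with siSox9 and 52.2, 49.9 and 52.7 FPKM with siNC. Every siSox9 library was above every siNC library. The mean rose from 51.6 ± 1.48 to 56.5 ± 1.40 FPKM (SD, n = 3 each), a log2 difference of 0.13 (SE 0.03, interval 0.05 to 0.21, limma adjusted p = 0.0270). The difference rested on 5528 to 6826 reads per library. Its call was not stable: the adjusted p was 0.0927 without siSox9 replicate 1, 0.0891 without siSox9 replicate 2, 0.0747 without siNC replicate 2 and 0.0501 without siNC replicate 3, and it was also lost on the TPM scale (0.0675), with no filter on low genes (0.0547) and without moderation of the variance (0.0581), with the direction kept each time.

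Bcl2l2 (chromosome 14, 54883377 to 54888234, plus strand), which encodes BCL-W, stood well below both. Its libraries stood at 9.75, 9.85 and 9.39 FPKM with siSox9 and at 9.47, 8.15 and 8.74 FPKM with siNC. The lowest siSox9 library was below the highest siNC library. The log2 difference of 0.13 had the size of the Bcl2l1 difference but a wider spread (SE 0.05), and did not pass (limma, adjusted p = 0.119). Without siNC replicate 1 it passed (adjusted p = 0.0287). Bcl2l2 shares 13.3% of its exon length with Gm20521 on the same strand, so that reads there cannot be assigned to either gene with certainty.

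Bcl2 (chromosome 1, 106538178 to 106714274, minus strand), the founding pro-survival member, was the least abundant of the 4. It measured 3.82, 3.53 and 3.67 FPKM with siSox9 and 4.32, 4.28 and 4.42 FPKM with siNC, on 802 to 1006 reads per library. All 3 siSox9 libraries were below all 3 siNC libraries. The mean fell from 4.34 ± 0.0735 to 3.67 ± 0.149 FPKM (SD, n = 3 each), a log2 difference of -0.19 (SE 0.04, interval -0.29 to -0.09, limma adjusted p = 0.0147). The call was lost without siSox9 replicate 2 (adjusted p = 0.0559), without siNC replicate 3 (0.0546) and on the TPM scale (0.0747), and the direction was kept under every alternative in which Bcl2 was tested. An antisense gene, D630008O14Rik, shares 6.09% of the Bcl2 exon length and averaged 0.0165 FPKM.

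Bak1 (chromosome 17, 27019810 to 27029009, minus strand) encodes BAK, the effector that sits in the outer mitochondrial membrane and forms the pore. It had the largest difference of the 9 members on the log2(FPKM + 1) scale, although with a pseudocount of 0.1 and with limma voom the difference of Bcl2 (-0.24 in each) was slightly larger in size than that of Bak1 (0.23 in each). The levels were 31.0, 31.6 and 30.6 FPKM with siSox9 and 28.0, 25.4 and 25.9 FPKM with siNC. The lowest siSox9 library was above the highest siNC library by more than the whole range of the siSox9 group. The mean rose from 26.5 ± 1.34 to 31.0 ± 0.482 FPKM (SD, n = 3 each), a log2 difference of 0.22 (SE 0.04, interval 0.13 to 0.32, limma adjusted p = 0.00660). Bak1 was called under all 15 alternatives tried, with log2 differences between 0.20 and 0.26 and adjusted p between 0.000979 and 0.0346. The opposite-strand gene Ggnbp1 shares 18.2% of the Bak1 exon length and averaged 0.340 FPKM.

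The BH3-only members gave no call. Bcl2l11 (chromosome 2, 128126038 to 128162547, plus strand) encodes BIM, which binds all pro-survival members and activates the effectors. It measured 4.71, 4.63 and 4.34 FPKM with siSox9 and 4.04, 4.21 and 3.90 FPKM with siNC. The groups did not overlap, with every siSox9 library the higher. The log2 difference of 0.14 (SE 0.05, interval 0.03 to 0.25) missed the threshold (limma, adjusted p = 0.0635). It passed after centring each library on its median (0.0334), after quantile normalization (0.0202) and with limma voom on the recovered reads (0.0265), the last an alternative chosen after seeing the data.

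Bad (chromosome 19, 6941861 to 6951898, plus strand) encodes a BH3-only protein that is silenced by phosphorylation and binding to 14-3-3 proteins. It measured 8.70, 7.71 and 8.93 FPKM with siSox9 and 8.13, 8.19 and 8.40 FPKM with siNC. The siNC libraries lay within the range of the siSox9 libraries. The log2 difference was 0.03 (interval -0.10 to 0.16, limma adjusted p = 0.716). Gpr137, on the opposite strand and at a mean of 7.40 FPKM, shares 20.5% of the Bad exon length, and whether the counting used strand is not given in the sources used here.

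Bid (chromosome 6, 120891930 to 120916853, minus strand), whose protein is cut by caspase-8 and carries the death receptor signal to the mitochondrion, was the most abundant of the BH3-only members. It measured 17.7, 17.2 and 17.2 FPKM with siSox9 and 18.4, 18.0 and 17.0 FPKM with siNC. All siSox9 libraries fell inside the siNC range. The log2 difference was -0.03 (interval -0.12 to 0.06, limma adjusted p = 0.537). Bid shares 17.7% of its exon length with Bcl2l13, another gene of the family on the opposite strand at a mean of 7.81 FPKM.

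Bnip3l (chromosome 14, 66985239 to 67008877, minus strand) encodes NIX, a receptor that marks mitochondria for mitophagy and a hypoxia-responsive gene. It measured 31.3, 33.0 and 33.3 FPKM with siSox9 and 32, 33.1 and 32.6 FPKM with siNC. The means were equal to 3 digits, 32.5 FPKM in each group. The interval of the log2 difference, -0.08 to 0.08, was among the narrowest of the members that were not called (limma, adjusted p = 0.982).

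**Figure D2:**
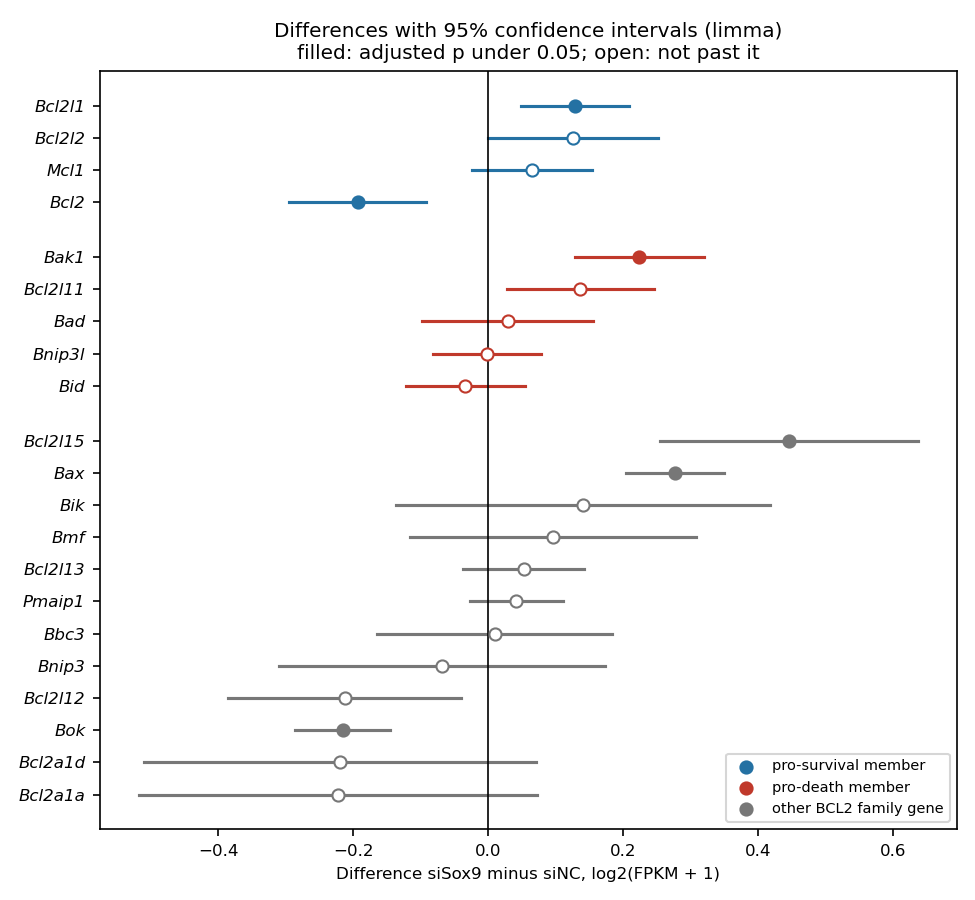
Log2 difference (siSox9 minus siNC) on the log2(FPKM + 1) scale of each member and of the 12 other tested BCL2 family genes, with 95% intervals from limma and filled points where the adjusted p was under 0.05. Bak1 at 0.22 and Bcl2l1 at 0.13 lie above 0, Bcl2 at -0.19 lies below 0, and Bad, Bid and Bnip3l lie within 0.03 of it.

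For a single gene, the exact two-sided permutation test with 3 libraries against 3 cannot give a p below 0.1. It gave 0.1 for the 5 members whose groups did not overlap, 0.2 for Bcl2l2, 0.4 for Bid, 0.6 for Bad and 1 for Bnip3l. The spread between replicates was close to counting error in both groups for some members, such as Bcl2 and Bcl2l11, but not for others. For Bcl2 the coefficient of variation was 4.07% with siSox9 and 1.69% with siNC, where counting alone gives 3.45% and 3.20%. For Bcl2l1 it was 2.47% and 2.86%, where counting gives 1.24% and 1.31%. For Bak1 it was 1.55% and 5.08%, where counting gives 2.31% and 2.53%. The widest relative spread among the pro-survival members was that of Bcl2l2 with siNC, 7.53% against a counting error of 3.22%.

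The order of the members by level was largely shared by the groups. With siNC it ran Mcl1, Bcl2l1, Bnip3l, Bak1, Bid, Bcl2l2, Bad, Bcl2 and Bcl2l11, and the only neighbours whose libraries overlapped were Bcl2l2 and Bad. With siSox9 the ranges of Bnip3l and Bak1 overlapped, those of Bcl2l2 and Bad did not, and Bcl2l11 stood above Bcl2. The ratio of Bcl2l11 to Bcl2 was 1.23, 1.31 and 1.18 with siSox9 and 0.936, 0.985 and 0.883 with siNC. BIM transcript thus exceeded BCL2 transcript in each siSox9 library and in no siNC library, a description of the differences already given for the 2 genes.

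Summed over each class, pro-survival and pro-death transcripts were both somewhat more abundant with siSox9, and the balance between them overlapped. The pro-survival sum was 133.0, 132.4 and 129.9 FPKM with siSox9 and 126.0, 118.5 and 127.3 FPKM with siNC, a mean 6.34% higher. The pro-death sum was 93.4, 94.1 and 94.3 FPKM with siSox9 and 90.5, 88.9 and 87.8 FPKM with siNC, a mean 5.44% higher. Neither sum overlapped between groups. The pro-survival to pro-death ratio was 1.42, 1.41 and 1.38 with siSox9 and 1.39, 1.33 and 1.45 with siNC, with means of 1.40 ± 0.0234 and 1.39 ± 0.0581 (SD, n = 3 each), and the siSox9 libraries lay inside the siNC range. RNA sums do not weigh how strongly each protein binds the others.

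Within the classes the shares of the called members moved, which restates the differences already given for them. The share of Mcl1 in the pro-survival sum, 47.0% with siSox9 and 47.8% with siNC, overlapped. Mcl1 and Bcl2l1 together made up 89.9% of the pro-survival sum with siSox9 and 89.4% with siNC, and Bcl2 made up 2.79% and 3.50%. The share of Bcl2 did not overlap between groups, and neither did the ratio of Bcl2 to Bcl2l1, which averaged 0.0650 with siSox9 and 0.0841 with siNC. Bak1 made up 33.0% of the pro-death sum with siSox9 and 29.7% with siNC, again with no overlap. Bnip3l, counted as pro-death although it encodes a mitophagy receptor, was the largest part of that sum, 34.6% with siSox9 and 36.5% with siNC. Without Mcl1 and Bnip3l, the highest member of each class, the pro-survival to pro-death ratio averaged 1.14 with siSox9 and 1.15 with siNC and overlapped. The sum of the BH3-only members Bcl2l11, Bad and Bid was 30.4 ± 0.788 FPKM with siSox9 and 30.1 ± 0.679 FPKM with siNC, and overlapped. The ratio of Bcl2l1 to Bak1, the called members of each class that were higher, averaged 1.82 and 1.95 and overlapped.

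**Figure D3:**
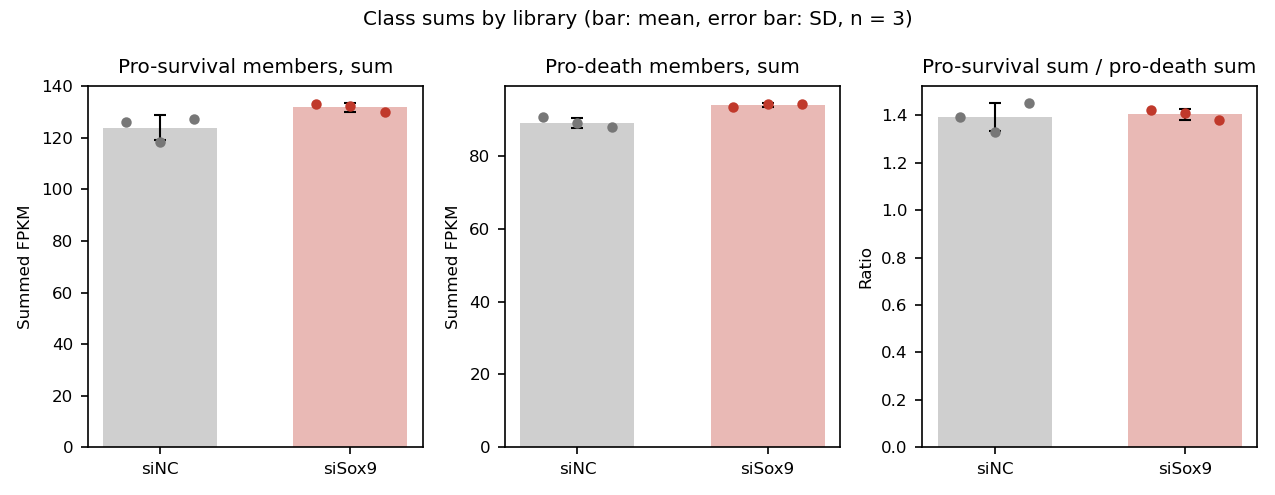
Summed FPKM of the 4 pro-survival and 5 pro-death members, and their ratio, in each library (points), with bars for the mean of 3 and error bars for the SD. Both sums are higher in all 3 siSox9 libraries than in any siNC library, and the ratios, 1.38 to 1.42 with siSox9, lie within the siNC range of 1.33 to 1.45.

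Of the 16 other BCL2 family genes listed for comparison, 12 were tested, 2 were higher, 1 was lower and 9 did not pass, with a median log2 difference of 0.03. Their called share was 25%, against 30.4% of all tested genes. The effector Bax measured 27.7, 28.2 and 27.2 FPKM with siSox9 and 23.0, 22.2 and 22.9 FPKM with siNC, a log2 difference of 0.28 (SE 0.03, limma adjusted p = 0.000857). Bax shares 12.2% of its exon length with Gm45808 on the same strand. Bok, which encodes a related effector largely insensitive to the pro-survival members and controlled by protein turnover, measured 51.8, 49.7 and 51.4 FPKM with siSox9 and 58.6, 60.3 and 59.0 FPKM with siNC, and its mean fell by 14.1% (log2 difference -0.21, limma adjusted p = 0.00224). Bak1 and Bax were therefore higher and Bok lower with siSox9. Their summed level was 109.7 ± 0.638 FPKM with siSox9 and 108.4 ± 0.957 FPKM with siNC and overlapped, while Bak1 and Bax without Bok summed to 58.8 ± 0.964 and 49.1 ± 1.70 FPKM (SD, n = 3 each), with no overlap.

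The low-level member Bcl2l15 was the other gene that rose, from 1.15 ± 0.0527 to 1.94 ± 0.267 FPKM (SD, n = 3 each, log2 difference 0.45, limma adjusted p = 0.00672), and it shares 21% of its exon length with Gm43064 on the same strand. The BH3-only p53 targets Pmaip1 (NOXA) and Bbc3 (PUMA) did not pass. Pmaip1, more abundant than any of the 9 members, averaged 241 ± 3.43 and 234 ± 4.78 FPKM (limma, adjusted p = 0.321), and Bbc3 averaged 12.5 ± 1.43 and 12.3 ± 0.286 FPKM (adjusted p = 0.935).

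Among the BH3-only genes Bmf and Bik, the mitophagy receptor Bnip3 and the family members Bcl2l12 and Bcl2l13, no call was made. The means with siSox9 and siNC were 1.95 and 1.76 FPKM for Bmf, 4.38 and 3.85 FPKM for Bik, and 2.61 and 2.78 FPKM for Bnip3. They were 3.10 and 3.76 FPKM for Bcl2l12 and 7.97 and 7.65 FPKM for Bcl2l13. Bik passed without siSox9 replicate 1 (limma, adjusted p = 0.0432). The pro-survival paralogs Bcl2a1a (1.27 and 1.67 FPKM) and Bcl2a1d (1.58 and 2.01 FPKM) are nearly identical in sequence, so that their separate values are uncertain, and Bcl2a1a passed without siNC replicate 3 (adjusted p = 0.0272). Bcl2a1b, Bcl2l14 and Hrk were under the filter of 1 FPKM and Bcl2l10 was listed at 0 in every library.

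Downstream and upstream of the members, 78 genes of 7 lists that include the other family genes were examined, and 72 were tested. Of these 15 were higher and 11 lower, 36.1% in all against the background of 30.4%, with a median log2 difference of 0.01. In the apoptosome and caspase list, 13 genes were tested, 1 was higher and 3 were lower. Apaf1, the scaffold of the apoptosome, fell from 10.8 ± 0.283 to 8.85 ± 0.447 FPKM (log2 difference -0.27, limma adjusted p = 0.00442), and the initiator caspase Casp2 fell from 6.21 to 5.28 FPKM (adjusted p = 0.00720, and 0.0506 on the TPM scale). Dffa, the inhibitor and chaperone of the apoptotic nuclease, rose from 5.84 to 8.27 FPKM (adjusted p = 0.000609). Cycs, cytochrome c, was called lower at 32.8 against 36.2 FPKM (adjusted p = 0.0364), but not without siSox9 replicate 1 (0.115), siSox9 replicate 2 (0.106), siNC replicate 2 (0.0965) or siNC replicate 3 (0.0944), nor after median-centring (0.0802). The Cycs call was also lost on the TPM scale (limma, adjusted p = 0.117), with no filter (0.0814) and without moderation (0.0883).

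Of the 5 inhibitor of apoptosis genes tested, 2 were higher, 1 was lower and 2 did not pass, 60% called against 30.4% of all tested genes. Birc2 and Birc3, whose proteins act in death receptor signalling, rose to 8.42 and 8.86 FPKM from 7.32 and 7.61 FPKM (limma, adjusted p = 0.0149 and 0.0147). Birc3 did not pass without siSox9 replicate 2 (adjusted p = 0.0584). Birc5, survivin, which also serves in cell division, fell from 6.56 to 4.0 FPKM (adjusted p = 0.000433). In the death receptor arm, 3 of 8 tested genes rose and none fell, against 12.8% of all tested genes that rose, and 1 was called without moderation. Cflar, which encodes the caspase-8 inhibitor FLIP, rose from 10.2 ± 0.210 to 13.4 ± 0.420 FPKM (log2 difference 0.36, adjusted p = 0.000556). The adaptor Tradd rose from 10.2 to 12.2 FPKM (adjusted p = 0.0118, and 0.0523 without moderation) and the TNF receptor Tnfrsf1a from 22.8 to 26.4 FPKM (adjusted p = 0.0175, and 0.0590 without siSox9 replicate 1, 0.0514 with no filter and 0.0689 without moderation).

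Among 6 partners of the family at the outer mitochondrial membrane, 2 were lower (33.3%) and none higher, where 17.6% of all tested genes were lower. The channel Vdac1 fell from 84.0 to 73.9 FPKM (limma, adjusted p = 0.0118, and 0.0510 without siSox9 replicate 2) and the fission GTPase Dnm1l from 38.6 to 34.5 FPKM (adjusted p = 0.0140, and 0.110 on the TPM scale). In the mitophagy list, 2 of 11 tested genes rose (18.2%) and none fell, where 12.8% of all tested genes rose. They were the cargo adaptor Sqstm1 (194 to 241 FPKM, adjusted p = 0.000397) and the ATG8 family gene Gabarap (118 to 131 FPKM, adjusted p = 0.00695). The 17 regulators of member proteins gave 5 genes higher and 4 lower, 52.9% called against 30.4% of all tested genes. That count of 9 was 4 without siSox9 replicate 2, with no filter and without moderation. It was 5 without siSox9 replicate 1, siSox9 replicate 3 or siNC replicate 3, and on the TPM scale. Of the 14-3-3 proteins that sequester BAD, Ywhaz fell from 147 to 106 FPKM (adjusted p = 0.000156) and Ywhag rose from 102 to 122 FPKM (adjusted p = 0.00130). Foxo3, a transcription factor known to activate Bcl2l11, fell from 10.1 to 8.53 FPKM (adjusted p = 0.0141, but 0.0948 on the TPM scale and 0.0531 without moderation). The BAD kinase Pim3 was called lower at 12.4 against 14.9 FPKM (adjusted p = 0.0261), but not without any single siSox9 replicate (0.0524, 0.0818 and 0.0751 for replicates 1 to 3), siNC replicate 2 (0.0786) or siNC replicate 3 (0.0757). The Pim3 call was also lost with no filter (limma, adjusted p = 0.0823) and without moderation (0.102). The remaining called regulators, named after their values were seen, were mostly higher. Sfn rose from 530 to 596 FPKM (limma, adjusted p = 0.00406) and Ywhab from 98.1 to 108 FPKM (0.0111). Pim1 rose from 6.52 to 7.70 FPKM (limma, adjusted p = 0.0229) and Foxo1 from 5.11 to 5.89 FPKM (0.0482). Akt2 fell from 11.0 to 9.57 FPKM (limma, adjusted p = 0.0402). Most of the calls from Sfn to Akt2 were lost with no filter and without siSox9 replicate 2. In each of these settings the count was 4, and Ywhaz, Ywhag and Foxo3 kept their calls.

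Markers of other cell types were low apart from macrophage genes, and their part in the differences above was not tested. The 6 macrophage and leukocyte markers summed to 138 to 155 FPKM with siSox9 and 135 to 139 FPKM with siNC. Of the 5 tested, 1 was called, 20% against 30.4% of all tested genes. It was Lyz2, at 83.4 against 71.9 FPKM (limma, adjusted p = 0.0175, but 0.0575 with no filter and 0.0754 without moderation). C1qa, Csf1r and Ptprc averaged 38.1, 9.38 and 0.653 FPKM with siSox9 and 42.0, 9.66 and 0.724 FPKM with siNC. In the other direction, Cd68 and Adgre1 averaged 11.8 and 2.43 FPKM with siSox9 and 10.9 and 2.22 FPKM with siNC. Csf1r, Ptprc, Cd68 and Adgre1 were named after their values were seen. The 6 fibroblast markers summed to 6.51 to 7.94 and 8.09 to 9.10 FPKM, and the 5 endothelial markers to 2.91 to 3.10 and 3.22 to 4.12 FPKM. The most abundant of them averaged 5.79 and 6.78 FPKM for Col1a1, 0.591 and 0.763 FPKM for Pdgfrb, 1.16 and 1.37 FPKM for Cdh5 and 0.664 and 1.08 FPKM for Emcn. Of these, Pdgfrb and Emcn were under the filter and Col1a1 and Cdh5 did not pass. The 4 podocyte markers summed to 7.82 to 8.58 and 12.2 to 12.5 FPKM, mostly Podxl, which was called lower at 7.48 against 11.6 FPKM (adjusted p = 0.000158), with Wt1 at 0.634 and 0.804 FPKM, and the podocyte-defining Nphs1, named after its values were seen, was listed at 0 in every library.

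**Figure D4:**
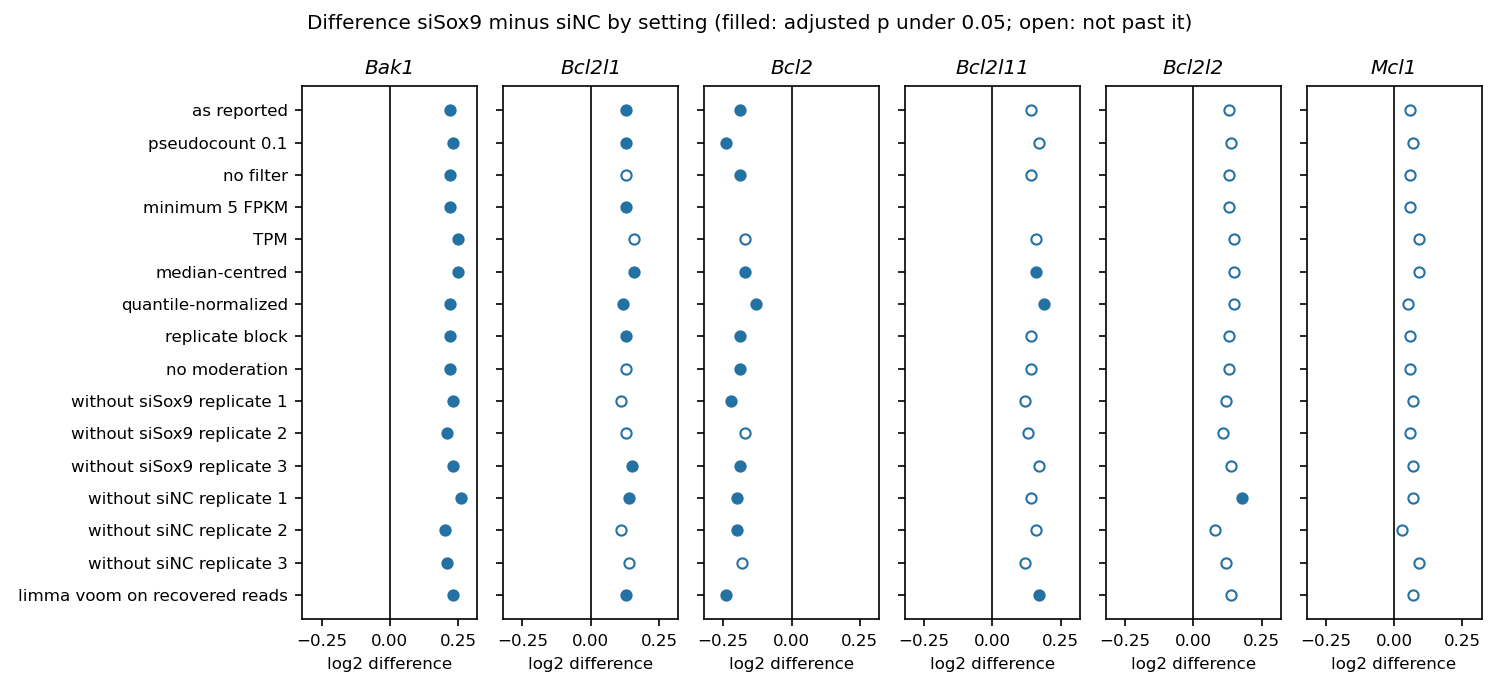
Log2 difference (siSox9 minus siNC) of Bak1, Bcl2l1, Bcl2, Bcl2l11, Bcl2l2 and Mcl1 as reported and under each processing alternative in which the gene was tested, with filled points where the adjusted p was under 0.05. Bak1 is called throughout at 0.20 to 0.26, Bcl2 lies between -0.24 and -0.13 and is called in 11 of 14 alternatives, and Bcl2l1 lies between 0.11 and 0.16 and is called in 8 of 15.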

How the data were processed

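Total RNA from 6 libraries (3 siSox9, 3 siNC) was sequenced on the Illumina NovaSeq platform. The authors deposited FPKM values per gene in a single table. Per the labels, the submitters' processing notes name the mm9 build, Bowtie2 2.2.3, HISAT2 2.1.0 and TopHat2 without roles. However, 93.3% of gene positions equal those of GENCODE M21 (GRCm38), and positions are given as the table holds them. The counter and its use of strand are not given in the sources used here.

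FPKM was transformed to log2(FPKM + 1), genes averaging 1 FPKM or more were kept (12009 of 30315), and groups were compared with limma 3.58.1 (R 4.3.3) with moderated variances and Benjamini-Hochberg adjustment at 0.05. A log2 difference on this scale understates the change of low genes. FPKM values of 27948 genes were whole multiples of a read in every library, within 0.02 reads, and reads were recovered from them for depth and as an alternative fit (limma voom). At the recovered depth, 3 reads per kb of transcript correspond to 0.117 to 0.126 FPKM, and counting errors cover counting only. No 2 libraries agreed within sampling noise. Sums, ratios, exact permutation tests and promoter windows were computed in Python 3.11.15 (scipy 1.17.1). The fit was tested on simulated data with the same spread setting for all genes. It called 97 of 101 genes with a log2 change of 1, 42 of 95 with a change of 0.3 and 13 of 10295 unchanged genes. The simulation changed far fewer genes than were called in the data, so these rates need not hold there. The member differences were all under 0.3 in size, and a member that did not pass is not shown to be unchanged. Named genes were all 9 members, the other family genes at 1 FPKM or more, and up to 4 called genes of each further list with the largest differences, and the 2 most abundant markers of each cell type. The members and lists were chosen with earlier results of these data known. Alternatives changed the pseudocount, filter, scaling, moderation, replicate block and each library in turn. The siRNA sequences were not used here.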

Additional observations from a re-analysis of the deposited data

How the results depend on the processing

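Members past the threshold numbered 3 of 9, and 1 to 4 without each library in turn. The count was 1 on the TPM scale, without siSox9 replicate 2 and without siNC replicate 3, and Bak1 was that member each time. It was 2 with no filter, without moderation and at a minimum of 5 FPKM (where Bcl2 and Bcl2l11 were not tested), and 4 after median-centring, after quantile normalization and with limma voom. Of all genes tested, 3650 were called, 2571 on the TPM scale and 2431 to 3653 without each library, the lowest without siSox9 replicate 2. Calls split into 1532 higher and 2118 lower, but 1959 and 1765 after median-centring and 1812 and 1797 after quantile normalization. Of the other listed genes, 26 were called, and 18 to 28 without each library.

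The fold of the pro-death sum was 1.05, 1.07 on the TPM scale, 1.09 without the highest member of each class and 1.05 to 1.06 without each library. That of the pro-survival sum was 1.06 and 1.04 to 1.08 without each library, and the difference in their ratio was 0.0118 and -0.0174 to 0.0407. Of genes that were not called, the log2 difference changed sign for Bnip3l (0.03 on the TPM scale and after median-centring, and -0.02 to 0.03 without each library), Bad (-0.01 to 0.09 without each library, negative without siSox9 replicate 3), Bbc3 (-0.06 to 0.10, negative without siSox9 replicate 1 or 2 and without siNC replicate 2) and Bnip3 (-0.16 to 0.02, positive without siNC replicate 1). The causes were not tested.

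The labels give the replicate numbers no meaning beyond a name, so they were not taken as pairs. Deviations of same-numbered libraries from their group means had correlations of -0.0504 to 0.0649 across genes. With the replicate block 3262 genes and the same 3 members were called (limma adjusted p 0.0166 for Bak1, 0.0353 for Bcl2 and 0.0492 for Bcl2l1). No call changed among the genes named by the rule above. Called regulators of member proteins numbered 7 with the block and 9 as reported. Not every call among the regulators named after their values were seen was therefore kept.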
